A study of Mus musculus with 12 samples.

Results

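Mitochondrial ribosomal proteins were defined as the genes in the deposited tables whose symbol is Mrpl or Mrps followed by a number and carries no pseudogene suffix. The rule found 78 genes of the 16246 in any table, 49 named for the large subunit (Mrpl) and 29 for the small subunit (Mrps). Each of the 78 stands in each of the 4 tables and passed the filter on low values, a mean of at least 10, and 1 pseudogene, Mrpl23-ps1, was left out. PolyA RNA was sequenced from 12 heart samples. The mice were C57Bl/6J males aged 12 weeks. Sham or TAC surgery was combined with a control or a BCAA-free diet, with 3 samples in each of the 4 combinations. The control diet held every essential amino acid and the BCAA-free diet lacked leucine, isoleucine and valine, the branched-chain amino acids. Each diet started 4 days before surgery and went on until the heart was taken 2 weeks later. TAC is transverse aortic constriction, a narrowing of the aorta that loads the left ventricle with pressure. Whether hearts were pooled is not stated in the labels, so the p-values measure only how far these samples scatter, and that scatter may be technical.

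The mitochondrial ribosome translates the few proteins that mitochondrial DNA encodes, all of them subunits of the respiratory chain and ATP synthase. Its RNAs come from mitochondrial DNA, while its proteins are encoded in the nucleus, made in the cytosol and imported. Some of these proteins descend from those of bacterial ribosomes and others joined the particle during mitochondrial evolution. The heart depends heavily on oxidative phosphorylation, and inherited defects of MRPL3, MRPL44 and MRPS22 are known causes of human cardiomyopathy. The symbol is not a perfect guide to the particle. Mrps18a and Mrps30 sit in the large subunit, and Mrps36 belongs to the 2-oxoglutarate dehydrogenase complex of the citric acid cycle. By place, the members are therefore 51 of the large subunit, 26 of the small subunit and Mrps36.

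The promoters of 5 members that recur below are shown because the members moved together and because NRF1, GABPA, YY1 and the estrogen-related receptors are known regulators of nuclear genes for mitochondrial proteins. The sequences are RefSeq's, on GRCm38.p6, read 5′ to 3′ on the gene's strand and cropped to bases that no annotated exon covers. Capitals mark exact matches to the letters searched for a motif.
Mrpl45: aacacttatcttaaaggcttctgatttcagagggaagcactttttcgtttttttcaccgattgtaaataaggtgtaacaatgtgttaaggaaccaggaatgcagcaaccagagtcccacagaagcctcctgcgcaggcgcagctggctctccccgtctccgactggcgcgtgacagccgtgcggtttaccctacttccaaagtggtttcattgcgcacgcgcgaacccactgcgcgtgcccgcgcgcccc
Mrpl10: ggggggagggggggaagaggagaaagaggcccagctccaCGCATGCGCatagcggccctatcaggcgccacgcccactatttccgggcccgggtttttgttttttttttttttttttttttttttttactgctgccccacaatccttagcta
Mrps22: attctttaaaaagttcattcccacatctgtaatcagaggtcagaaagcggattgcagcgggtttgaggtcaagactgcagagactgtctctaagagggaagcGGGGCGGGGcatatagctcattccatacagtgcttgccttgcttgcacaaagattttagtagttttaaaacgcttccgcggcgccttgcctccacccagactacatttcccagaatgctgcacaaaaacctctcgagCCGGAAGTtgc
Mrps24: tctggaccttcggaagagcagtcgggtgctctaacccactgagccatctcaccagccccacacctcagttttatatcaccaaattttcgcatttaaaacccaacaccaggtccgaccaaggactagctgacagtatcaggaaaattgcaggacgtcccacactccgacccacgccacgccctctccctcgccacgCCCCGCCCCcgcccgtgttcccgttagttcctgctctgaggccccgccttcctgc
Mrps36: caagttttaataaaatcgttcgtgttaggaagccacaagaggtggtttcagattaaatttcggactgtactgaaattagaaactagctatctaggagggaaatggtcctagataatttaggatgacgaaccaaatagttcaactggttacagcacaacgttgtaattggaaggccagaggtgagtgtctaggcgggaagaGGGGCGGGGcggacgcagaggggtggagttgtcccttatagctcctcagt
The first, of Mrpl45, is chr11:97315466-97315715 on the plus strand. It holds none of the exact letters searched, which the next paragraph gives, and other spellings of the motifs were not searched. Mrpl10 (chr11:97041408-97041559, plus strand) holds an NRF1 match. The other 3 lie on the minus strand. Mrps22 (chr9:98601680-98601929) holds a GABPA match and a GC box, Mrps24 (chr11:5707702-5707951) a GC box, and Mrps36 (chr13:100744660-100744909) a GC box.

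Windows of 300 bases, 250 before to 50 after a start, were at hand for 69 of the 78 members and for 11135 genes of the table that compares TAC with sham on the control diet. Both strands were searched, and a gene counted if any of its windows matched. The NRF1 letters GCGCATGCG stood in 7 of 69 members (10.1%) and in 3.82% of the genes of that table. The GABPA letters CCGGAAGT stood in 12 members (17.4%, against 8.43%) and the YY1 letters AAGATGGCG in 8 (11.6%, against 3.28%). CAAGGTCA, read by estrogen-related receptors, stood in 2 members (2.9%, against 1.45%). The GC box GGGGCGGGG, bound by SP1, stood in 13 members (18.8%, against 23.9%). The letters CTACAATTC, searched for ZNF143, stood in 0 of 69 members and 0.772% of the genes. That count holds for this spelling only and does not show that the members lack ZNF143 sites. NRF1 letters overlap their own reverse complement, so 1 site can match on both strands. Each motif was searched only in the exact spelling given, so a member without a match may hold a site in another spelling. These shares describe letters in a window and were not tested.

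Levels were compared between members only per kilobase of the longest annotated coding transcript, in control diet sham. The median member stood at 901 normalized reads per kilobase, with 1001 for Mrpl and 718 for Mrps genes. The highest was Mrpl42 (11590.2 ± 2139.6 SD, n = 3), then Mrps21 (3942 ± 1136) and Mrpl12 (3740.2 ± 872). The lowest were Mrps25 (153 ± 23.1), Mrpl17 (152 ± 20.7) and Mrpl53 (84.6 ± 31.5). The coding transcripts used for Mrps25 and Mrpl17 are 6073 and 7300 bases long. The longest transcript of any type, coding or not, had a median of 1866 bases over the members. Exons of Mrps25 share 69.8% of their bases with Nr2c2 on the other strand, and those of Mrpl53 88% with Gm42688 on the same strand. Their low levels may in part come from how shared reads were counted, which was not tested. The members took 0.334% to 0.478% of a library's reads, and Mrps genes 31.6% to 33% of the members' reads in each library.

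Depth, as whole reads recovered from the deposited values, was taken as the larger total of each library's 2 tables and ran from 13848953 to 52065900, the lowest being BCAA-free sham replicate 2. One library stood apart for the members. In control diet sham replicate 3 they took 0.478% of the reads, where the other control diet sham libraries had 0.385% and 0.364%, and 77 of 78 lay above the group's mean. Their median deviation there was 0.271 on the log2 scale, beside 0.391 for cytosolic ribosomal proteins, 0.396 for nuclear respiratory chain genes and -0.071 for respiratory chain genes of mitochondrial DNA. Comparisons that use control diet sham are therefore also given without it. The hearts carried their defining markers, with all 14 cardiomyocyte genes of the list in each table. Of the 5 TAC markers Acta1, Ankrd1, Myh7 and Nppb rose after TAC on the control diet (median of the 5 2.01). On the BCAA-free diet 2 of the 5 rose after TAC (median 0.831), and all 5 lay above 0 on both diets.

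**Figure D1:**
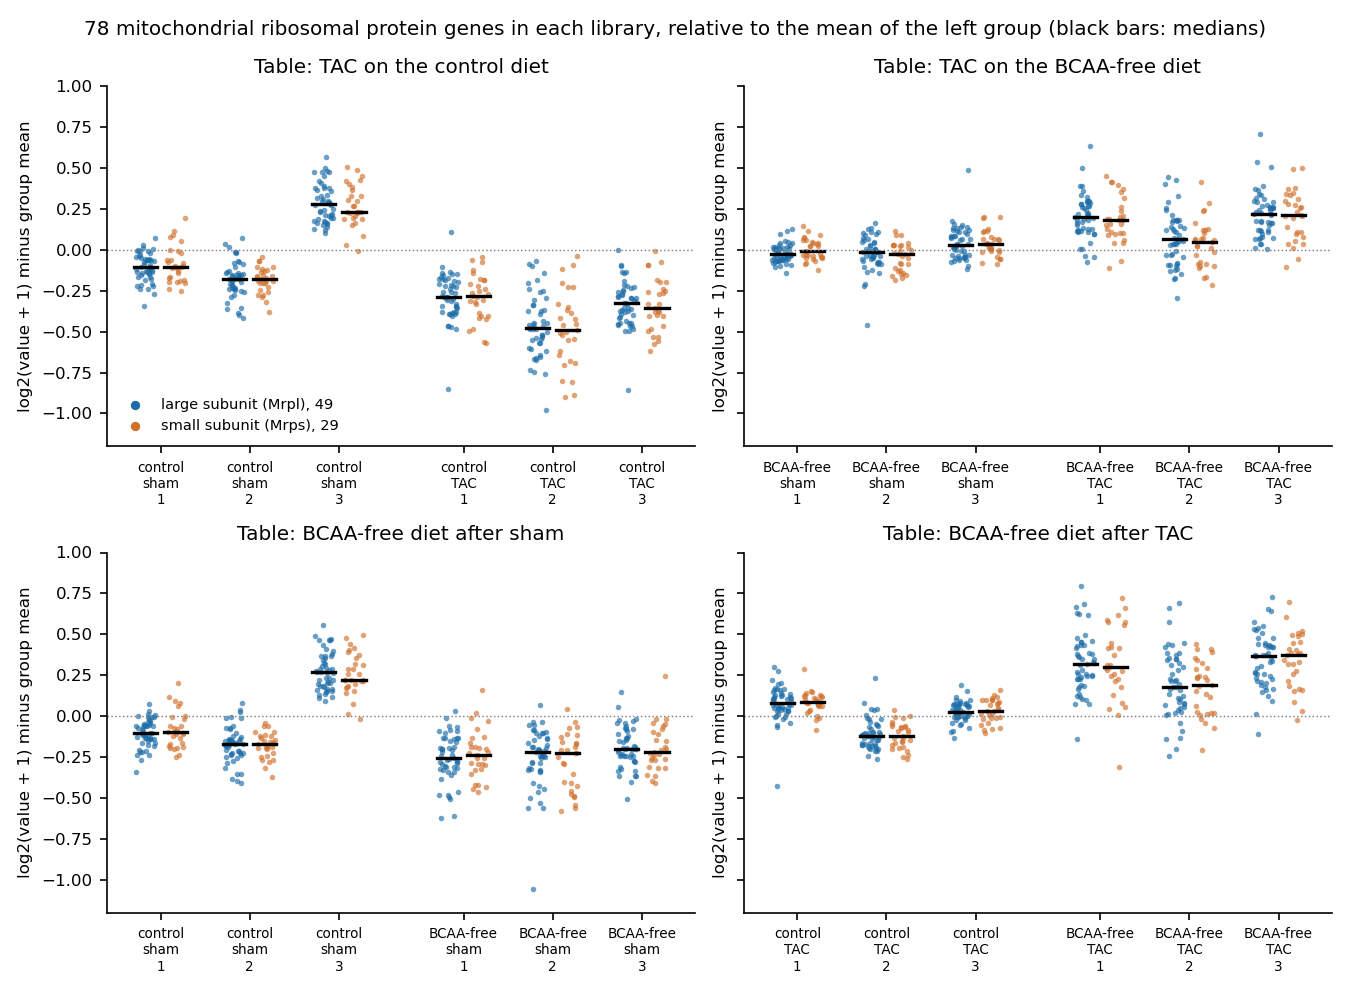
Each point is 1 of the 78 members in 1 library, on the log2 scale relative to the mean of the group drawn left in that table, with Mrpl genes in blue, Mrps genes in orange and black bars at the medians. Against their sham group the control diet TAC libraries have medians of -0.286, -0.481 and -0.333, control diet sham replicate 3 lies above the other libraries of its group, and the Mrpl and Mrps medians of a library nearly coincide.

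TAC on the control diet was compared with sham to ask what pressure overload did when the diet held every essential amino acid. Each of the 78 log2 fold changes was below 0 (72 under library totals, 77 once trends over GC content and length were removed and 71 without control diet sham replicate 3), with a median of -0.367 (all genes tested -0.0047) and a range from -0.77 for Mrpl14 to -0.035 for Mrps10. By limma, 2 members fell, Mrps35 and Mrpl45, and 0 rose, where 1.09% of the 15397 genes tested fell and 2.95% rose. A further count uses only the order of the libraries: all 3 TAC libraries lay below all 3 sham libraries for 51 of 78 members and for 17.4% of all genes. At an unadjusted p under 0.05, 49 members were lower, beside 4343 of all genes in either direction.

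Mrps35, a small subunit protein found in mitochondria only, lies on chromosome 6, 147042764 to 147073991 (GRCm38). In this and the following sentences a signed value is a log2 fold change ± its standard error from limma, and adjusted p-values use the Benjamini-Hochberg method across every tested gene. Its normalized read counts were 2087, 1876 and 2423 in the sham libraries and 1425, 1136 and 1503 in the TAC libraries, which do not overlap (-0.65 ± 0.14, adjusted p = 0.0441). Mrpl45 (chromosome 11, 97315716 to 97329920), which lies at the exit of the ribosome's peptide tunnel and anchors the particle to the inner membrane, went from 1623, 1464 and 1823 to 1178, 1125 and 1219 (-0.47 ± 0.11, adjusted p = 0.0484). In both genes sham replicate 3 is the highest library and each of the other sham libraries also lies above each TAC library. Neither gene was called without that replicate, where 13 of the 15362 genes tested fell. Mrpl14, a relative of bacterial L14 that binds the assembly factor Malsu1, had the lowest estimate but a wide sham group of 1775, 2022 and 3189 against 1622, 1144 and 1246 (-0.77 ± 0.22, adjusted p = 0.0679). Mrps24 (-0.64 ± 0.16, adjusted p = 0.0571), Mrps28 (-0.64 ± 0.20, adjusted p = 0.0873) and Mrpl41 (-0.57 ± 0.17, adjusted p = 0.0782) did not pass either.

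The members linked above to human cardiomyopathy did not pass. Mrps22 had values of 629, 524 and 671 in sham and 462, 393 and 457 in TAC (-0.47 ± 0.13, adjusted p = 0.0652), and Mrpl44, a member with a ribonuclease-like fold, 1372, 1235 and 1553 and 1179, 1049.6 and 1156 (-0.29 ± 0.11, adjusted p = 0.134). Neither overlapped between the groups. Mrpl3 overlapped (-0.26 ± 0.14, adjusted p = 0.246). At the other end of the range, Mrps10 (-0.035 ± 0.12, adjusted p = 0.875), Mrpl43 (-0.086 ± 0.14, adjusted p = 0.716), Mrpl33 (-0.095 ± 0.17, adjusted p = 0.755) and Mrps23 (-0.12 ± 0.17, adjusted p = 0.679) overlapped between sham and TAC.

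The count of calls depended on the setting. Without any single one of the 3 sham libraries or control diet TAC replicates 2 and 3, 0 members were called, and few of all genes. Of all genes 0 fell without sham replicate 1 or 2 or TAC replicate 3, 13 without sham replicate 3 and 34 without TAC replicate 2. In these fits 27 to 60 members and 2764 to 4443 of all genes had an unadjusted p under 0.05. Without control diet TAC replicate 1, 4 members and 371 of 15374 genes fell. Without control diet sham replicate 3 the median was -0.224, with 33 members and 4443 of 15362 genes at an unadjusted p under 0.05. The count of members down was 26 by DESeq2 (912 of 15397 genes), 40 by limma on all 12 libraries (1371 of 15196) and 1 by edgeR (134 of 15397). It was 23 once GC content and transcript length trends were removed, where 889 of 15365 genes fell. Scaling to library totals alone moved the median of all genes to 0.145 and that of the members to -0.217, a distance of -0.362. The authors' deposited table has 26 members down and 0 up at an adjusted p under 0.05. Calls over all genes were not counted in the authors' own results, here or below.

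Markers of other heart cells moved in the same comparison. Of 12 fibroblast markers 7 rose (median 1.53), with sums of 32384 to 36666 in sham and 66060.4 to 166690 in TAC, and control diet TAC replicate 2 had the highest fibroblast sum and the lowest members' median. Of 10 macrophage markers 1 rose (median 0.381), and of 14 cardiomyocyte markers 1 fell (median -0.214, sums 2781230 to 2853260 in sham and 2143430 to 2542280 in TAC). Of 10 smooth muscle and pericyte markers 2 rose and 1 fell (median 0.523), of 5 lymphocyte markers tested 1 rose (median -0.082), and of 10 endothelial markers 0 passed (median 0.129). Each fibroblast, macrophage and cardiomyocyte marker had a value in each table, and of the lymphocyte list Cd3e, Cd3d, Cd3g, Cd8a and Ms4a1 were not listed. The part of cell composition in the members' differences was not tested, here or in the comparisons below, and in whole heart fewer cells of a type and less RNA per cell cannot be told apart.

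The same surgery on the BCAA-free diet was compared to ask what pressure overload did without dietary branched-chain amino acids. Here 9 members rose and 0 fell by limma, against 3.34% of 15670 genes up and 2.89% down. The median log2 fold change was 0.17 (all genes 0.0014), 68 of 78 members lay above 0, and estimates ran from -0.12 for Mrpl1 to 0.58 for Mrpl53. All 3 TAC libraries lay above all 3 sham libraries for 30 members, as for 14.6% of all genes.

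Of the 9, 5 are Mrpl genes and 4 Mrps genes. Mrpl57 (chromosome 14, 57826234 to 57829296), a short protein of the large subunit, had 648, 716 and 637 normalized reads in sham and 941, 894 and 968 in TAC (0.49 ± 0.086, adjusted p = 0.0149). Mrpl10, which with Mrpl12 forms the stalk that recruits translation factors, went from 1608, 1721 and 1590.2 to 1943, 2233 and 2322 (0.40 ± 0.083, adjusted p = 0.0225). Its promoter is the one above with the exact NRF1 letters searched. Its partner Mrpl12 had 4037, 3858 and 4404 in sham and 5040.1, 4354 and 5171 in TAC, which overlap (0.24 ± 0.084, adjusted p = 0.101).

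Mrps36 (chromosome 13, 100735955 to 100744659), the dehydrogenase subunit, went from 1497, 1419 and 1456 to 1888, 1719 and 2050.1 (0.37 ± 0.081, adjusted p = 0.026). Mrps12, the relative of the bacterial decoding protein S12, rose from 1067, 922 and 1029 to 1340.4, 1226 and 1306 (0.36 ± 0.084, adjusted p = 0.0315). The other 5 were Mrps34 (0.38 ± 0.082), Mrpl38 (0.32 ± 0.073), Mrps28 (0.34 ± 0.085), Mrpl23 (0.26 ± 0.068) and Mrpl43 (0.29 ± 0.079), with adjusted p from 0.0246 to 0.0478. Exons of Mrps34 share 63.4% of their bases with Mapk8ip3 on the other strand and 37% with Nme3 on the same strand. The strand setting of the counts is not given in the sources used here. The reads of Mrps34 may therefore not all be its own, and the overlap with Nme3 holds under any setting. Mrpl53 had the largest estimate at the lowest values, 42.5, 31.2 and 61.3 against 67.8, 57.5 and 71.4 (0.58 ± 0.26, adjusted p = 0.192), and shares 88% of its exon bases with Gm42688 on the same strand.

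The lowest estimates were Mrpl1 (-0.12 ± 0.094, adjusted p = 0.469), Mrps6 (-0.083 ± 0.11, adjusted p = 0.701), Mrpl15 (-0.054 ± 0.074) and Mrps31 (-0.039 ± 0.085), none past the threshold. Without BCAA-free TAC replicate 3 or BCAA-free sham replicate 1 the count was 0, with 18 and 21 members at an unadjusted p under 0.05, and it was 10 without BCAA-free sham replicate 3. Leaving out BCAA-free TAC replicate 1 gave 4, TAC replicate 2 gave 2 and sham replicate 2 gave 1. Limma on all 12 libraries also called 0 (10 at an unadjusted p under 0.05) and edgeR 9. Fold changes in this comparison went with base composition and length across the 78 members (Pearson r = 0.477 with transcript GC content and -0.49 with log2 length), points that share libraries and are no independent replicates. With those trends removed from each library the median was 0.13, 70 members lay above 0 and 1 was called up. Calls over all genes dropped as well, to 77 of 15635 up from 524 of 15670. The part of the trends in the result was not tested beyond that. The authors' deposited table has 11 members up and 0 down. Beside these, 4 of 14 cardiomyocyte markers rose (median 0.23), 3 of 10 macrophage markers rose (median 0.282), and 0 of 12 fibroblast markers rose and 1 fell (median 0.297). Of 10 smooth muscle and pericyte markers 2 fell (median 0.17), of 10 endothelial markers 1 fell (median -0.0033), and of 5 lymphocyte markers tested 0 passed (median -0.141).

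**Figure D2:**
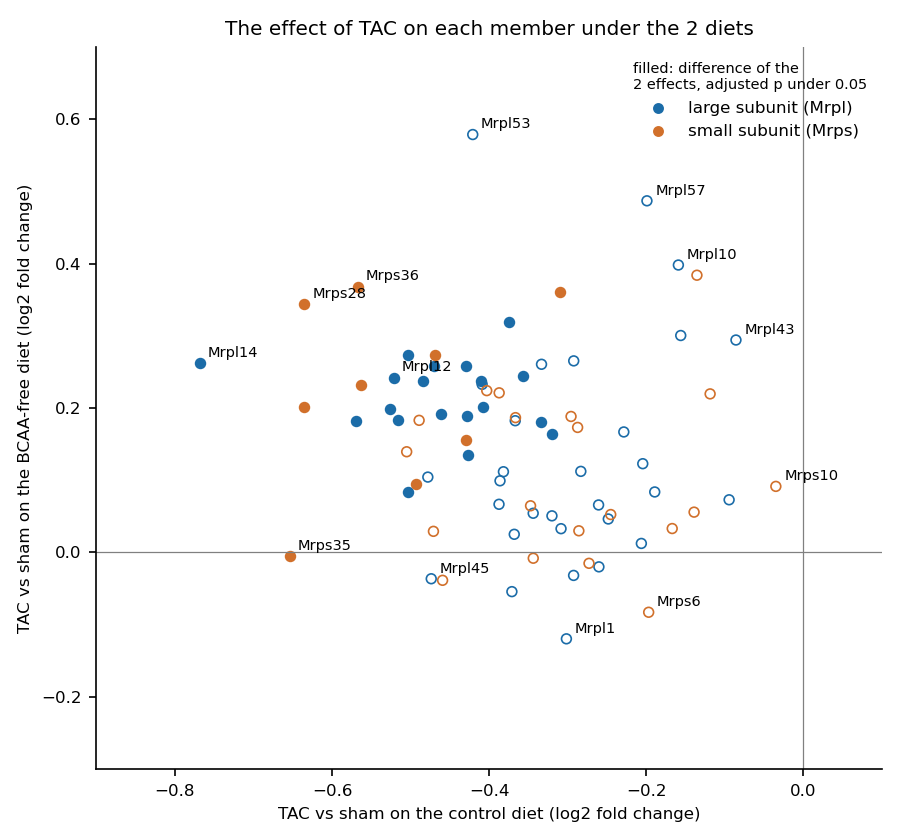
Each circle is 1 member, placed by its log2 fold change after TAC on the control diet (horizontal axis) and on the BCAA-free diet (vertical axis), filled where the difference of the 2 effects passed at an adjusted p under 0.05. All 78 circles lie left of 0, 68 lie above 0, and Mrps36 lies at -0.57 and 0.37.

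The difference between the TAC effects of the 2 diets was tested as an interaction on the 12 libraries of both TAC tables. It was above 0 for all 78 members (75 under library totals or once trends over GC content and length were removed, and 77 without control diet sham replicate 3), with a median of 0.534 against -0.03 for the 15195 genes tested. By limma 28 members passed upward, 19 Mrpl and 9 Mrps genes, and 0 downward, where 4.92% of genes passed upward and 3.73% downward. Mrps36 had the smallest p (0.94 ± 0.18, adjusted p = 0.013). On the control diet it had gone from 1486, 1486 and 1841 in sham to 1310.0, 917 and 1039 in TAC, the reverse order of the BCAA-free diet, without overlap in either table. Then came Mrpl38 (0.70 ± 0.16, adjusted p = 0.0222), Mrpl16 (0.61 ± 0.14, adjusted p = 0.0231), a protein near the peptidyl transferase centre, and Mrpl46 (0.78 ± 0.18, adjusted p = 0.0231). Mrpl37 (0.60 ± 0.14, adjusted p = 0.0254) and Mrpl22 (0.72 ± 0.18, adjusted p = 0.0273) were among those with the smallest p.

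Mrpl14 had the largest difference (1.03 ± 0.25, adjusted p = 0.0292). The stalk protein Mrpl12 passed (0.76 ± 0.19, adjusted p = 0.0292) and Mrpl10 missed the threshold (0.56 ± 0.18, adjusted p = 0.0629). The smallest differences were those of Mrps6 (0.11 ± 0.19, adjusted p = 0.726), Mrps10 (0.13 ± 0.14, adjusted p = 0.587) and Mrpl33 (0.17 ± 0.23, adjusted p = 0.658). Across the 78 members, which share their libraries, the TAC effects on the 2 diets had a Pearson r of -0.134 and a Spearman rho of -0.197, given as a description.

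The number of members that passed the interaction depended on single libraries, as did that of all genes. With all 12 libraries 747 of 15195 genes passed upward. Leaving out control diet sham replicate 3 gave 26 members (693 of all genes), at a median of 0.382. The number was 1 when any 1 of BCAA-free TAC replicate 3 and BCAA-free sham replicates 1 and 2 was left out (127, 162 and 152 of all genes). It was 3 without BCAA-free TAC replicate 1 (230 of all genes) and 5 and 11 without control diet TAC replicates 2 and 3 (344 of all genes each). Without control diet sham replicate 2 it was 46 (824 of all genes). The median lay between 0.382 and 0.616 in each of these fits, and library totals alone gave 16 members (386 of all genes). Across the members, the interaction estimates had a Pearson r of 0.391 with transcript GC content and -0.467 with log2 length. With those trends removed from each library the median was 0.474 and 20 members passed upward, beside 502 of 15163 genes. The part of these trends was not tested. Cell markers moved beside the interaction too. The 12 fibroblast markers had a median of -1.01 (2 down, 8 at an unadjusted p under 0.05), the 14 cardiomyocyte markers 0.313 (2 up, 14 of 14 above 0) and the 5 TAC markers -1.19 (0 passed, 5 of 5 below 0, 3 at an unadjusted p under 0.05). Of the 10 smooth muscle and pericyte markers 1 passed upward and 1 downward (median -0.369), of 5 lymphocyte markers tested 1 downward (median -0.369), and of 10 macrophage and 10 endothelial markers 0 passed (medians -0.114 and -0.113).

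Sham-operated hearts of the 2 diets were set against each other to ask what the missing amino acids did without pressure overload. By limma 0 members passed in either direction, where 0.25% of 15217 genes rose and 0.375% fell. At an unadjusted p under 0.05 there were 25 members and 2525 of all genes. DESeq2 called 1 member lower and edgeR 0, where they called 276 and 56 of all genes lower. The median was -0.217 and 75 members lay below 0, but without control diet sham replicate 3 the median was -0.079 with 61 below 0. All 3 BCAA-free libraries lay below all 3 control libraries for 27 members, as for 11.3% of genes. Mrpl19 came nearest, with 866, 768 and 919.6 on the control diet and 617, 639 and 673 on the BCAA-free diet (-0.40 ± 0.11, adjusted p = 0.109), where the other control libraries also lie above each BCAA-free library. Mrpl12 was lower (-0.47 ± 0.15, adjusted p = 0.153) in values of 3315, 3168 and 3618 against 4466, 3831 and 5927, where replicate 3 lies far above its group. Mrpl46 had -0.47 ± 0.13, Mrps28 -0.47 ± 0.18 and Mrps16 -0.40 ± 0.16, and Mrps6 (0.044 ± 0.15), Mrpl39 (0.036 ± 0.10) and Mrps30 (0.016 ± 0.13) were the 3 estimates above 0. The authors' deposited table has 1 member down and 0 up. Of the macrophage markers 0 of 10 passed (median -0.685, 9 at an unadjusted p under 0.05) and of the fibroblast markers 1 of 12 fell (median -0.357). Of the cardiomyocyte markers 0 of 14 passed (median -0.124, 11 below 0). Of 10 smooth muscle and pericyte markers 1 rose (median 0.196), and 0 of 10 endothelial and 0 of 5 lymphocyte markers passed (medians -0.025 and -0.297).

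The diets were also compared after TAC, and here most of the members rose. By limma 42 of 78 were higher on the BCAA-free diet, 26 Mrpl and 16 Mrps genes, and 0 lower, where 16.5% of the 15872 genes tested rose and 17.7% fell. The median was 0.29 (all genes 2.6e-04), with 75 above 0, and all 3 BCAA-free libraries lay above all 3 control libraries for 50 members, as for 25.2% of genes. This comparison shares no library with control diet sham. It shares its control diet TAC libraries with the first comparison and its BCAA-free TAC libraries with the second, so the 3 are not independent.

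Mrpl23 (chromosome 7, 142532686 to 142540747), a relative of the bacterial protein L23 at the tunnel exit, had 1399, 1104 and 1267 normalized reads on the control diet and 2013, 1978 and 1957 on the BCAA-free diet (0.66 ± 0.094, adjusted p = 0.00187). Mrpl14 rose from 1985, 1391 and 1518 to 2802, 2601 and 2672 (0.74 ± 0.12, adjusted p = 0.00349), the largest estimate of the 78. Mrpl39 went from 2061, 1476 and 1817 to 2739, 2638 and 2788 (0.62 ± 0.11, adjusted p = 0.00478). In these 3 genes the BCAA-free libraries lie close together and the control diet libraries scatter, with replicate 2 the lowest.

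Mrpl28 (0.55 ± 0.092, adjusted p = 0.00351), Mrps26 (0.44 ± 0.083, adjusted p = 0.00509), Mrpl48 (0.41 ± 0.077, adjusted p = 0.00524), Mrps15 (0.49 ± 0.096, adjusted p = 0.00592) and Mrps21 (0.56 ± 0.11, adjusted p = 0.00623) rose as well. Mrpl2, a relative of bacterial L2 close to the peptidyl transferase centre, had 0.44 ± 0.089, adjusted p = 0.00687. Mrpl42, the member with the highest level per length, went from 7126, 5589 and 6781 to 9104, 8811 and 9471 (0.50 ± 0.10, adjusted p = 0.00724). Mrps36 (0.57 ± 0.13, adjusted p = 0.0116) and Mrpl58, a release factor relative that frees stalled peptides (0.41 ± 0.088, adjusted p = 0.00831), also rose. The 3 paralogs of bacterial S18 did not share a call. Mrps18a (0.28 ± 0.088, adjusted p = 0.0358) and Mrps18c (0.40 ± 0.11, adjusted p = 0.0233) rose, and Mrps18b did not pass (0.058 ± 0.092, adjusted p = 0.655), a difference between paralogs that was not tested. Below 0 stood Mrps2 (-0.18 ± 0.093, adjusted p = 0.16), Mrpl19 (-0.16 ± 0.086, adjusted p = 0.171) and Mrpl35 (-0.039 ± 0.097, adjusted p = 0.784), none past the threshold.

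Members picked for their role gave mixed calls for the diet after TAC. Among those linked to cardiomyopathy, the estimates were 0.051 ± 0.098 for Mrpl3 (adjusted p = 0.717), 0.16 ± 0.089 for Mrpl44 (adjusted p = 0.2) and 0.15 ± 0.10 for Mrps22 (adjusted p = 0.303). At the stalk, Mrpl11, which forms its base, had 0.31 ± 0.10, adjusted p = 0.0416, Mrpl10 0.27 ± 0.12, adjusted p = 0.118 and Mrpl12 0.29 ± 0.091, adjusted p = 0.0366. In the small subunit, Mrps5 had 0.17 ± 0.093, adjusted p = 0.176, Mrps14 0.31 ± 0.083, adjusted p = 0.0212 and Mrps16 0.34 ± 0.098, adjusted p = 0.0256. Mrpl24, a relative of bacterial L24, had 0.27 ± 0.095, adjusted p = 0.0526.

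Of the 28 members that passed the interaction, 27 are among these 42. The exception, Mrpl9, singled out after its values were seen, had 0.18 ± 0.083, adjusted p = 0.122 here and 0.48 ± 0.14, adjusted p = 0.0454 in the interaction. The count for the diet after TAC was 20 without BCAA-free TAC replicate 3, 22 without BCAA-free TAC replicate 1 and 28 without control diet TAC replicate 3. Of all genes 1554, 1595 and 1706 rose in these fits. Without each of the others 33 to 39 members and 1653 to 2571 of all genes rose. Library totals alone, which moved the median of all genes to -0.128, gave 21 up, 2 down, 66 above 0 and a members' median of 0.16. The authors' deposited table has 40 members up and 0 down. In the same comparison 10 of 12 fibroblast markers fell (median -1.41, sums 37142 to 48497 on the BCAA-free diet against 80844.5 to 202599), as did 9 of 10 macrophage markers (median -0.698), while 6 of 14 cardiomyocyte markers rose and 1 fell (median 0.224). Of 10 endothelial markers 5 fell and 1 rose (median -0.183, 9 of 10 below 0), of 5 lymphocyte markers tested 2 fell (median -0.68), of 10 smooth muscle and pericyte markers 2 rose and 1 fell (median -0.1), and of the 5 TAC markers 3 fell (median -0.916).

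**Figure D3:**
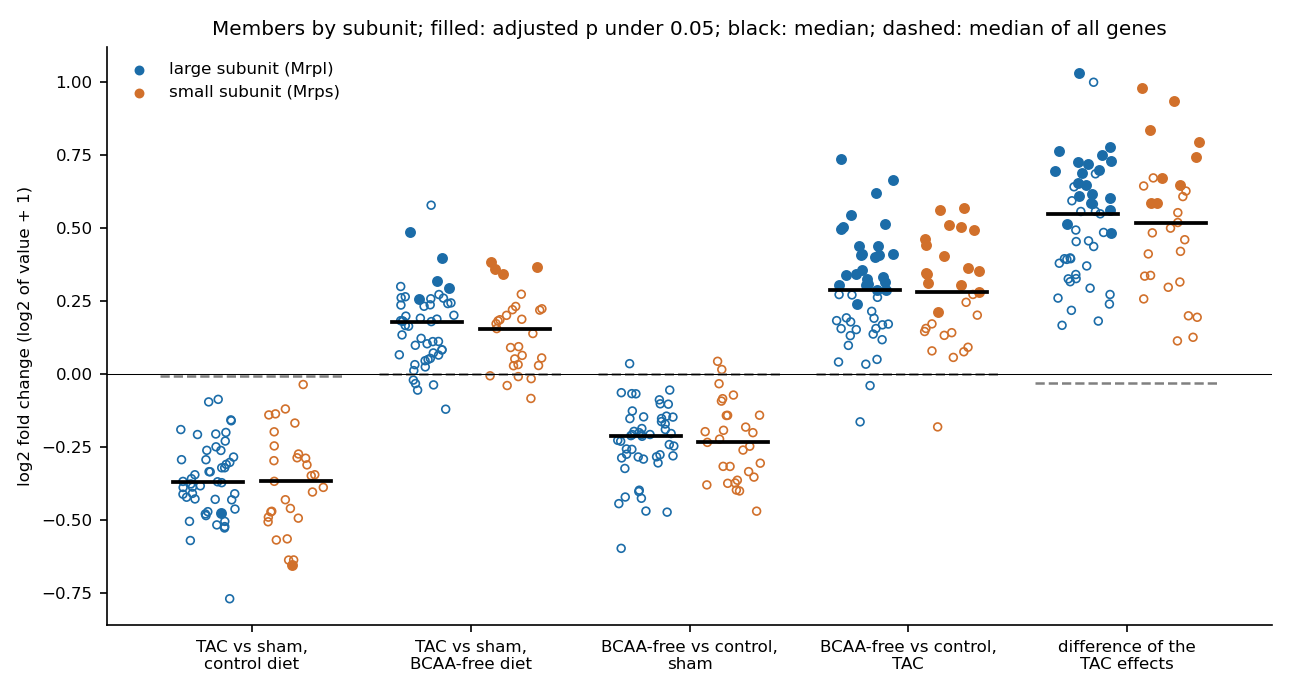
Log2 fold change of each member in the 4 comparisons and the difference of the TAC effects, by subunit, with filled circles at an adjusted p under 0.05, black bars at the members' medians and dashed lines at the median of all genes tested. The 2 subunits overlap in each column, with medians of -0.368 and -0.367 after TAC on the control diet and 0.29 and 0.282 for the diet after TAC.

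The large and small subunit were set side by side in each comparison, as a description. After TAC on the BCAA-free diet the median was 0.18 for Mrpl and 0.156 for Mrps genes, for the diet after sham -0.21 and -0.233, and for the interaction 0.549 and 0.52. Sorted by place in the ribosome, the large and small subunit had -0.367 and -0.377 after TAC on the control diet, 0.18 and 0.148 after TAC without dietary BCAA, -0.207 and -0.24 for the diet after sham, and 0.29 and 0.26 for the diet after TAC. In the interaction they had 0.514 and 0.536, so that the order of the subunits turned with the sorting there, as it did after TAC on the control diet. The 46 members with a bacterial counterpart and the 31 of mitochondria only had medians of 0.273 and 0.312 for the diet after TAC, and 23 and 18 of them rose. In the interaction 17 and 10 passed.

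To order the 4 groups for each member, the reads of all 12 libraries were put on 1 scale by their median ratio. Control diet TAC was the lowest of the 4 groups for 60 of 78 members (76.9%; 33.5% of all genes) and the highest for 0 (33.4% of genes). BCAA-free sham was the lowest for 17, BCAA-free TAC for 1 (Mrpl19) and control diet sham for 0. Control diet sham was the highest for 57 members, but without its replicate 3 for 22, and BCAA-free TAC then was for 53. In that case control diet TAC was the lowest for 59. On this scale Mrps35 ran at 1552, 1238 and 1634 in control diet TAC and between 1851 and 2600.2 in the other 9 libraries.

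**Figure D4:**
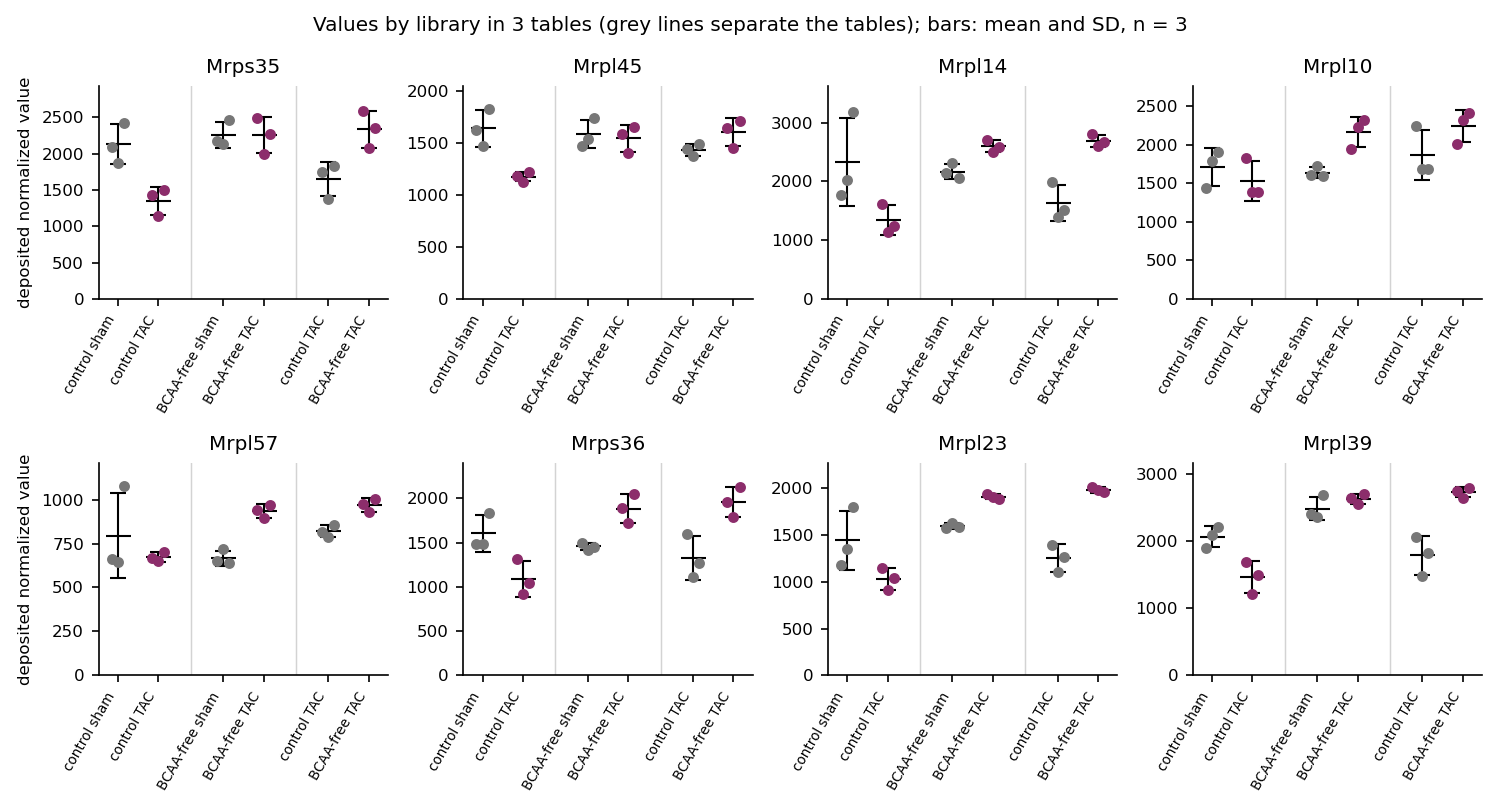
Deposited normalized values of 8 members in 3 of the tables, TAC against sham for each diet and the 2 diets after TAC, separated by grey lines and each scaled on its own, with points for libraries and bars for the mean and SD of 3. Mrps35 and Mrpl45 are lower in control diet TAC than in its sham group and overlap between sham and TAC on the BCAA-free diet, while Mrpl57 and Mrps36 are higher in BCAA-free TAC than in BCAA-free sham without overlap.

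Genes around the mitochondrial ribosome were read from lists chosen for their roles. Their counts stand against 16.5% of all genes up for the diet after TAC and 4.92% up in the interaction. The 5 mitoribosomal proteins with other names, among them the GTP-binding protein Dap3, had a median of -0.419 after TAC on the control diet, with 0 called, and 0.31 for the diet after TAC, where 4 of 5 rose (such as Dap3 0.46, adjusted p = 0.0059). Of 28 assembly and rRNA-modifying factors, 0 passed after TAC on either diet (medians -0.338 and 0.086), and 9 rose for the diet after TAC (median 0.218), such as Mpv17l2 (0.51, adjusted p = 0.00287) and the rRNA maturation factor Rbfa (0.54, adjusted p = 0.00407). In the interaction 4 of the 28 passed upward, among them the rRNA methyltransferase genes Mrm1 (0.93, adjusted p = 0.0251) and Mrm2 (0.81, adjusted p = 0.0229). Of 15 translation factors tested 3 rose for the diet after TAC, a share close to that of all genes, including the elongation factor Tufm (0.32, adjusted p = 0.0296) and the membrane insertase Oxa1l (0.40, adjusted p = 0.00939), with a list median of 0.064. Of 13 transcription and RNA processing genes tested 4 rose, including the RNA polymerase gene Polrmt (0.36, adjusted p = 0.0176).

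Of 10 regulators of mitochondrial genes, 0 rose and 1 fell after TAC on the control diet (median -0.187), 0 rose and 2 fell on the BCAA-free diet (median -0.031), and 2 rose and 1 fell for the diet after TAC (median -0.063, 6 of 10 below 0). In the interaction 1 of 10 passed, upward (median -0.083, 6 of 10 below 0). The 1 gene was Esrra, the estrogen-related receptor alpha, which had fallen after TAC on the control diet (-0.57, adjusted p = 0.0433), rose for the diet after TAC (0.56, adjusted p = 0.00475) and passed the interaction (0.73, adjusted p = 0.013). Gabpa and Esrrg fell after TAC on the BCAA-free diet (-0.40, adjusted p = 0.0235 and -0.38, adjusted p = 0.0258), while Nrf1 passed in none of the 4 tables.

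The members' products serve the respiratory chain, whose 2 genomes were compared. The 80 nuclear genes of the respiratory chain and ATP synthase had medians of -0.594 after TAC on the control diet (1 down), 0.201 on the BCAA-free diet (20 up), 0.542 for the diet after TAC (75 up) and 0.787 in the interaction (59 up). On the control diet 66 of 80 were down at an adjusted p under 0.1 (members 27 of 78, all genes 1028 of 15397). There 76 had an unadjusted p under 0.05 (49 of the members, 4343 of all genes). The 13 genes that the mitochondrial ribosome translates had medians of -0.186, -0.116, 0.204 and -0.026, and 0 of 13 passed in any comparison by limma. At an unadjusted p under 0.05 there were 2, 2, 0 and 0, and 3 for the diet after sham. The 86 cytosolic ribosomal protein genes had -0.283, 0.112, 0.254 and 0.385, with 0, 7, 41 and 5 up. For the diet after sham the nuclear respiratory chain list had a median of -0.221 (77 of 80 below 0), close to the members' -0.217. The mitochondrially encoded and cytosolic ribosomal lists had 0.083 and -0.133 there, and 0 genes of the 3 lists were called. These values stand side by side and their differences from the members were not tested.

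**Figure D5:**
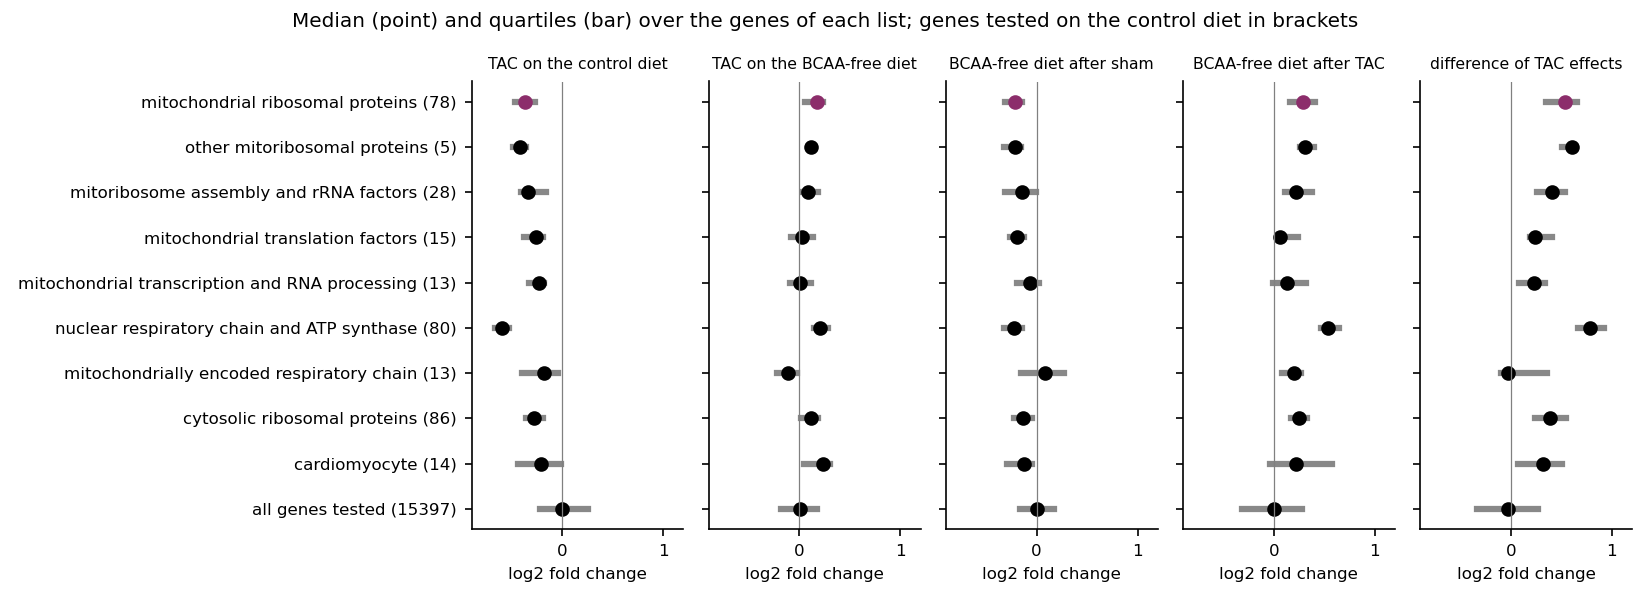
Median (point) and quartiles (bar) of log2 fold changes over the genes of each list, by comparison. The mitochondrial ribosomal proteins (purple) lie between the nuclear respiratory chain genes and the cytosolic ribosomal proteins in the interaction (0.534, against 0.787 and 0.385), and the mitochondrially encoded genes have a median of -0.026 there.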

How the data were processed

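PolyA-selected heart RNA of 12 samples was sequenced. The submitters' processing notes name STAR 2.5.2b, Trimmomatic 0.36, DESeq2 and Subread 1.5.2, and the build GRCm38 (mm10). The authors deposited 4 tables of normalized signal, 6 libraries each, with their log2 fold changes and p-values. From the values, each is a whole read count divided by 1 size factor per library and table (100% within 0.01 of a whole read), so comparisons were made within a table. Genes with a mean of at least 10 were tested on log2(value + 1), a scale that understates changes of low genes, with limma 3.58.1 (trend and robust, statmod 1.5.0, R 4.3.3). Calls took a Benjamini-Hochberg adjusted p under 0.05 across the whole table. The interaction used the 12 libraries of both TAC tables. Alternatives used edgeR 4.0.16 and DESeq2 1.42.0 on the whole reads, other scalings, filters and thresholds, GC content and length trends, and left-out libraries. On simulated data limma called 68.4% of genes changed 2-fold for TAC on the control diet (15240 genes) and 55% for the interaction (15148 genes). No change smaller than 2-fold was simulated, and most estimates of the members were smaller, so these shares do not give the detection at the members' own sizes.

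Members, lists and tests were chosen with earlier results of these data known. Members were named by a rule: the called ones with the smallest p in each comparison, the highest and lowest estimates per subunit at a mean of at least 100, a set of members of known role, the 3 highest and 3 lowest per length, and the 4 with the smallest interaction p. Other list genes were named by smallest p. The order of the 4 groups on 1 scale was added after seeing the data. Coordinates, transcripts and exons come from GENCODE M21. The 3 libraries per group limit the precision, and separation of 3 against 3 cannot give an exact permutation p under 0.1.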

Additional observations from a re-analysis of the deposited data

Results flagged for a closer look

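The effect of TAC differed between the diets by the interaction test for 28 members. Each value here is the log2 fold change of TAC on the BCAA-free diet minus that on the control diet, at an adjusted p under 0.05 by limma on 12 libraries. For the 19 Mrpl genes the differences were Mrpl38 0.70, Mrpl16 0.61, Mrpl46 0.78, Mrpl28 0.70, Mrpl37 0.60, Mrpl42 0.73, Mrpl48 0.56, Mrpl22 0.72, Mrpl4 0.62, Mrpl23 0.73, Mrpl2 0.65, Mrpl14 1.03, Mrpl12 0.76, Mrpl21 0.69, Mrpl55 0.65, Mrpl39 0.59, Mrpl49 0.51, Mrpl41 0.75 and Mrpl9 0.48. For the 9 Mrps genes they were Mrps36 0.94, Mrps24 0.84, Mrps28 0.98, Mrps26 0.59, Mrps15 0.59, Mrps35 0.65, Mrps16 0.74, Mrps21 0.80 and Mrps12 0.67. Leaving out single libraries changed how many members, and how many of all genes, pass, as given above, and the cause was not tested.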

How the results depend on the processing

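No member's called direction was reversed under the alternatives run, and in the counts below the cause was not tested. After TAC on the control diet the 2 members down became 1 with TMM scaling, library totals or edgeR, where 168 of all genes became 155, 148 and 134. They became 26 with DESeq2, 40 with limma on all 12 libraries, 27 at an adjusted p under 0.1 and 23 with GC content and length trends removed. Of all genes these settings called 912, 1371, 1028 and 889 down. After TAC on the BCAA-free diet the 9 up became 1 with those trends removed, 0 with limma on all 12 libraries and 19 at an adjusted p under 0.1. Of all genes 524 up became 77, 51 and 1070. For the diet after sham 1 member was down by DESeq2 and by limma on all 12 libraries, where 276 and 180 of all genes were down. For the diet after TAC the 42 up became 21, with 2 down and a median of 0.1603, under library totals. They became 27 with limma on all 12 libraries, where 2215 of all genes were up, against 2618 by the main fit. The interaction's 28 became 16 under library totals, 46 at an adjusted p under 0.1 and 20 with GC content and length trends removed. Of all genes 747 up became 386, 1393 and 502. Library totals moved the median of all genes to 0.145 after TAC on the control diet and -0.128 for the diet after TAC, with 1267 genes up and 148 down, and 1461 up and 3798 down.

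Leaving out each library gave 0 to 4 members down after TAC on the control diet (medians -0.4645 to -0.2236), 0 to 10 up after TAC on the BCAA-free diet (0.1281 to 0.2122), 0 down for the diet after sham (-0.3152 to -0.0794), 20 to 39 up for the diet after TAC (0.2219 to 0.3431) and 1 to 46 up in the interaction (0.3815 to 0.6156). Over all genes the same counts ran, in that order, from 0 to 371, 41 to 593, 5 to 267, 1554 to 2571 and 127 to 975. The replicate numbers are not stated to mark a shared litter, batch or day, so they were not taken as pairs. Between groups, same-numbered libraries correlated at -0.237 to 0.301 and differently numbered ones at -0.301 to 0.381. The replicate block gave 3 down, 13 up, 40 up and 39 up for TAC on each diet, the diet after TAC and the interaction. Of all genes it called 277 down, 675 up, 2202 up and 908 up there. With GC content and length trends removed as well it gave 14 down and 4 up for TAC and 2 down for the diet after sham, where 507, 163 and 229 of all genes were called.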
